A study of Danio rerio with 2 samples.

Results

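The genes described here encode non-collagen components of cartilage and bone matrix in zebrafish larvae: acana, matn1, matn3a, mgp, spp1 and entpd5a. They were taken as the rows of the deposited gene expression table whose gene symbol equals one of these 6 names. All 6 had a row, 1 row each, among 33733 rows and 29358 symbols in all. The series compared homozygous lri35 mutants with wild-type larvae of the same clutch, spelled lir35 in the sample labels, in fish of AB/TL strain at 5 days post fertilization (5 dpf). RNA came from the whole body, with 20 larvae pooled into 1 library per genotype. The labels do not name the gene affected by the allele, so the mutation itself could not be read from the table. With 1 library a group there is no replicate error, and no test across samples was made. Every difference below compares these 2 libraries, in which genotype, pool and library cannot be told apart.

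Cartilage is built by chondrocytes, which surround themselves with a gel of collagen fibrils and large proteoglycans. Aggrecan, the product of acana, holds water through its chondroitin sulfate chains, and matrilins, the products of matn1 and matn3a, are adaptor proteins that link collagen fibrils to proteoglycans. Bone is laid down by osteoblasts, whose matrix is mineralized where the supply of phosphate and the inhibitors of crystal growth allow it. Osteopontin, the product of spp1, is an acidic secreted phosphoprotein of bone. Matrix Gla protein, the product of mgp, inhibits calcification of soft matrix in mammals after vitamin K-dependent carboxylation. In zebrafish, the secreted enzyme made from entpd5a is needed for bone to mineralize. At 5 dpf the pharyngeal skeleton is largely cartilage and mineralization has only begun.

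Values were read from the layout of the table, since no label states their unit, as FPKM (fragments mapped to a gene, scaled to its length and to the mapped fragments of the library). FPKM summed to 875340 over the wild-type library and 874244 over the mutant library. Absolute depth is unknown. In 350 low rows, which averaged 0.3 FPKM or less and were 0 in neither library, the mutant to wild-type ratio peaked near 0.812. Of these rows, 40.3% lay within 0.1 of that peak on the log2 scale. If the rows at the peak hold equal fragment counts, the mutant library held roughly 1.23 times as many counted fragments. That condition was not tested. A difference is given as log2((mutant FPKM + 1)/(wild-type FPKM + 1)), which understates the change of low genes, and a gene counts as higher or lower when it reaches 2-fold on this scale. Folds are plain ratios, with nothing added. Measured genes are the 19112 symbols whose average level in the 2 libraries reached 1 FPKM. In whole-body RNA, fewer cells of a type and less RNA per cell cannot be told apart.

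All 6 genes were measured, and 0 of the 6 reached 2-fold in either direction. Over all measured genes 5.99% did so, 2.87% higher and 3.12% lower in the mutant library. The median log2 difference of the 6 genes was -0.07, beside -0.01 over all measured genes, and the values ran from -0.69 for mgp to 0.26 for matn1. The level of matn1 was higher in the mutant library, and the levels of the other 5 were lower. Plain levels of 3 genes, matn3a, spp1 and entpd5a, lay within 1.1-fold of each other in the 2 libraries.

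**Figure D1:**
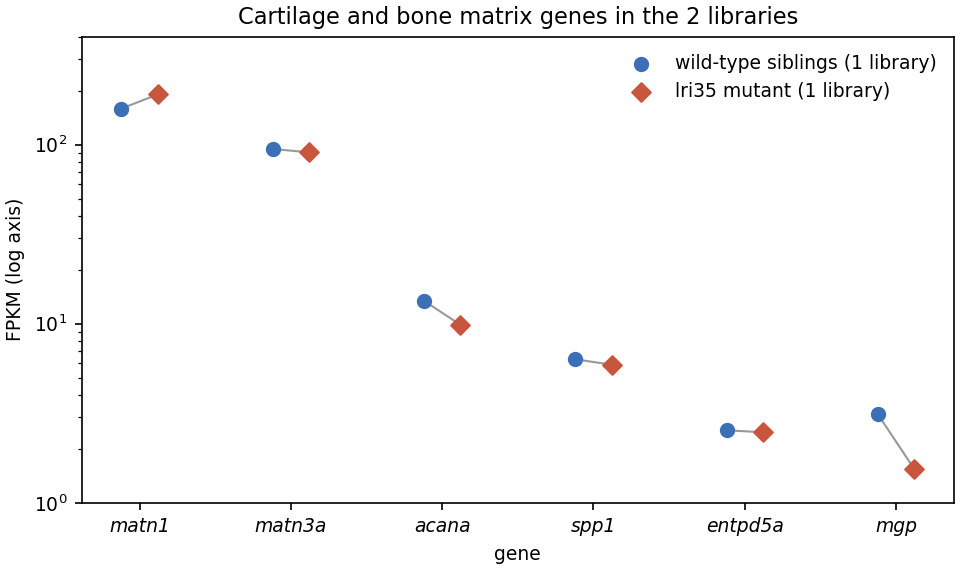
FPKM of the 6 genes on a log axis, in the wild-type library (blue circles) and the mutant library (red diamonds), each from 1 pool of 20 larvae and without error bars. The genes span from 1.55 FPKM for mgp in the mutant to 190 FPKM for matn1 in the mutant, and the line between the symbols is steepest for mgp, at 3.12 and 1.55 FPKM.

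The matrilin matn1, an abundant marker of differentiated chondrocytes, had the highest level of the 6 genes. Its level was 159 FPKM in the wild-type library and 190 FPKM in the mutant library. The mutant library was therefore 1.20-fold higher, a log2 difference of 0.26. Of 875 genes averaging 100 FPKM or more, 22.6% differed by at least as much, and 3.20% reached 2-fold. The gene (ENSDARG00000030215) occupies bases 45245319 to 45268900 of chromosome 19 on the Zv9 build, a region that no other row overlaps.

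The second matrilin, matn3a, was the next most abundant. Its level was 94.5 FPKM in the wild-type library and 90.5 FPKM in the mutant library, 1.04-fold lower, with a log2 difference of -0.06. The 2 libraries were thus closer for matn3a than for matn1, and matn1 stood 1.68 times above matn3a in the wild-type library and 2.10 times above it in the mutant. Among 3132 genes with a mean of 20 to under 100 FPKM, 80.8% differed by at least as much as matn3a, and 1.79% reached 2-fold. The gene (ENSDARG00000069245) lies at bases 43791821 to 43807307 of chromosome 20. Its copy matn3b stood at 20.95 FPKM in the wild-type library and 18.05 FPKM in the mutant, also lower in the mutant library. The level of matn4, another matrilin, was 99.4 FPKM in the wild-type library and 119 FPKM in the mutant.

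The aggrecan gene acana, which encodes the core protein of the main cartilage proteoglycan, stood far below the matrilins in level. It stood at 13.4 FPKM in the wild-type library and 9.88 FPKM in the mutant library. The mutant library was 1.36-fold lower, a log2 difference of -0.41. Among 7550 genes with a mean of 5 to under 20 FPKM, 26.1% differed by at least as much, and 3.56% reached 2-fold. Its duplicate acanb, which also encodes an aggrecan, was nearly equal in the 2 libraries, with 6.02 FPKM in the wild-type library and 6.17 FPKM in the mutant. The sum of both aggrecan genes was 19.5 FPKM in the wild-type library and 16.05 FPKM in the mutant, 1.21-fold lower. The region of acana (ENSDARG00000035891) runs from 50224292 to 50244367 on chromosome 7 and holds no other row.

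Among the bone genes, spp1 was the most abundant of the 3 members. It stood at 6.33 FPKM in the wild-type library and 5.90 FPKM in the mutant library, 1.07-fold lower, a log2 difference of -0.09. In the same abundance class as acana, 79.5% of genes differed by at least as much. The gene (ENSDARG00000044276) lies at bases 15149284 to 15157345 of chromosome 10. The nearest row before it is scpp8, of the same family of secretory calcium-binding phosphoproteins, at 2.29 FPKM in the wild-type library and 3.65 FPKM in the mutant. Thus scpp8 was higher in the mutant library, while spp1 lay within 1.1-fold.

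The mineralization enzyme gene entpd5a had nearly equal levels. It stood at 2.54 FPKM in the wild-type library and 2.48 FPKM in the mutant library, 1.02-fold lower, a log2 difference of -0.02. This was the smallest difference of the 6 genes. Of 7555 genes with a mean of 1 to under 5 FPKM, 95.9% differed by at least as much, and 10.5% reached 2-fold. Its region (ENSDARG00000053481) runs from 45196768 to 45207175 on chromosome 17.

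The calcification inhibitor gene mgp had the largest difference of the 6. It stood at 3.12 FPKM in the wild-type library and 1.55 FPKM in the mutant library. The plain ratio was 2.01-fold lower, which the added 1 FPKM brings to a log2 difference of -0.69. In the abundance class that mgp shares with entpd5a, 21.0% of genes differed by at least as much on that scale. By plain ratio, 11.6% of the genes of that class were lower in the mutant library by 2-fold or more. The order of the lowest levels was reversed between the libraries, with mgp 1.23 times the level of entpd5a in the wild-type library and 0.625 times in the mutant.

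The row of mgp (ENSDARG00000086189) is the only one of the 6 whose region is shared. Bases 2202872 to 2231504 of chromosome 3 are also given as the region of bglap, which encodes osteocalcin, a vitamin K-dependent protein of bone, and of si:ch1073-504d15.3. The bglap row was listed at 0 in the wild-type library and at 6.74e-05 FPKM in the mutant. The si:ch1073-504d15.3 row was listed at 0 in the wild-type library and at 2.16 FPKM in the mutant. Summed over the 3 rows, the region stood at 3.12 FPKM in the wild-type library and 3.72 FPKM in the mutant, a log2 difference of 0.19. The direction therefore turned when the rows were added together, a sum chosen after the values were seen that adds levels over different gene lengths. Whether fragments were assigned differently among these rows in the 2 libraries was not tested.

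**Figure D2:**
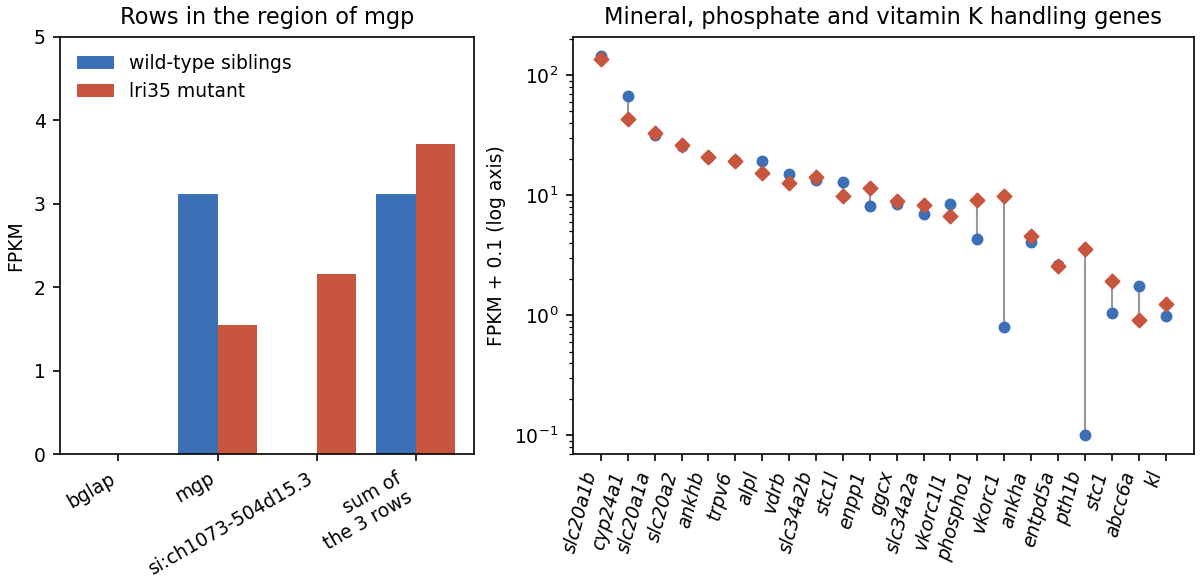
Left, FPKM of the 3 rows that share the region of mgp and of their sum, in the wild-type library (blue) and the mutant library (red), without error bars because each group is 1 library. Right, FPKM + 0.1 on a log axis for the measured genes of mineral, phosphate and vitamin K handling, ordered by mean level, where the widest gaps are those of vkorc1 and pth1b.

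The group as a whole was carried by the matrilins. The 6 levels summed to 279 FPKM in the wild-type library and 301 FPKM in the mutant library, a ratio of 1.08. Of these sums, matn1 and matn3a made up 90.9% for wild type and 93.4% for the mutant. The other 4 genes summed to 25.4 FPKM in the wild-type library and 19.8 FPKM in the mutant, 1.28-fold lower. The sum and the median of the single differences therefore had opposite signs.

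The authors' deposited table tested 4 of the 6 genes, acana, matn1, matn3a and spp1, and left mgp and entpd5a untested. In the authors' deposited table the p-values, which compare these 2 libraries and not the genotypes, were 0.316 for acana, 0.369 for matn1, 0.829 for matn3a and 0.837 for spp1. The q-value in the authors' deposited table was 0.994 for each of these 4. None of them (0 of 4) was called, beside 18 rows called of 14574 tested in the authors' deposited table (0.124%). Before correction, 0 of the 4 had a p under 0.05, beside 428 of the 14574 rows tested in the authors' deposited table.

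**Figure D3:**
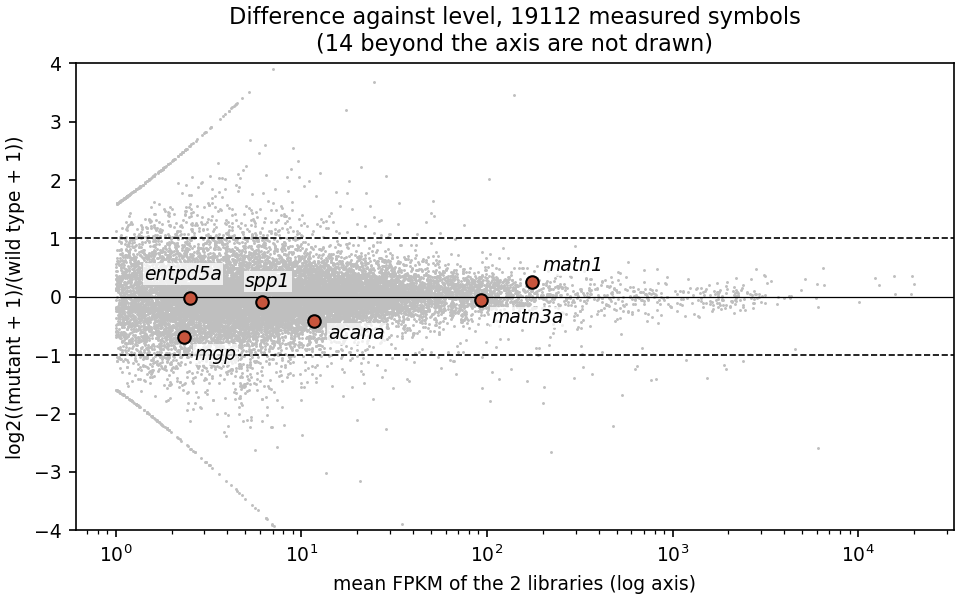
Log2 difference between the libraries, with 1 FPKM added, against the mean FPKM on a log axis for measured genes (grey) and the 6 matrix genes (red). Dashed lines mark 2-fold, the outer arcs are genes listed at 0 in 1 library, and the 6 red points lie between -0.69 and 0.26.

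Rows next to the 6 genes showed the differences of their surroundings. The nearest rows of matn1 were sesn2, at 9.73 FPKM in the wild-type library and 11.1 FPKM in the mutant, and eef1a1l1, at 6401 and 5696 FPKM. The nearest rows of matn3a were ttc32, at 14.4 and 11.8 FPKM, and laptm4a, at 83.2 and 81.1 FPKM. The row after acana, mfge8a, began 837 bases from its end and stood at 24.5 FPKM in the wild-type library and 25.1 FPKM in the mutant. The row before entpd5a was coq6, at 11.6 and 9.22 FPKM, and the row after it was gstz1, at 67.6 and 69.8 FPKM. The row after spp1, sh3bp2, stood at 0.413 and 0.716 FPKM. The rows on either side of the mgp region were listed at 0 in both libraries.

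Other matrix genes of cartilage lay within 2-fold, more of them on the side of the mutant library. Of 22 measured genes of cartilage matrix other than collagens and the 6 members, 16 lay above 0 and 6 below. None of the 22 reached 2-fold (0 of 22), beside 5.99% of all measured genes. In the abundance classes of 5 FPKM or more, which hold most of the 22, between 1.79% and 3.56% did so. The median log2 difference of the 22 was 0.22, beside -0.01 over all measured genes, of which 49.1% lay above 0. The 2 highest of the list were ucmaa, which encodes a vitamin K-dependent protein of cartilage, at 5.89 FPKM in the wild-type library and 10.5 FPKM in the mutant, and hapln1b, a link protein that fastens aggrecan to hyaluronan, at 16.4 and 27.6 FPKM. The lowest were the biglycan gene bgnb, at 10.4 FPKM in the wild-type library and 7.37 FPKM in the mutant, and cilp2, at 3.99 and 2.71 FPKM. The abundant ucmab stood at 106 and 117 FPKM. Within this list matn1 lay near the median of the others and acana near the low end.

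Of 14 measured collagen genes of cartilage and bone, 9 lay above 0 and 5 below, and the median was 0.07. None reached 2-fold (0 of 14). In the classes that hold most of them, 1.79% of genes (20 to under 100 FPKM) and 3.20% (100 FPKM or more) did so. The highest difference was that of col27a1a, at 2.75 FPKM in the wild-type library and 4.46 FPKM in the mutant (1.62-fold higher), and the lowest that of its copy col27a1b, at 1.51 and 1.24 FPKM. The main cartilage collagen gene col2a1a stood at 192 FPKM in the wild-type library and 204 FPKM in the mutant, in a region that it shares with other rows. The gene of hypertrophic cartilage and early bone, col10a1, stood at 114 and 105 FPKM, and the bone collagen gene col1a1a at 271 and 267 FPKM.

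Regulators of chondrocytes and the enzymes that make chondroitin sulfate chains had medians of 0.01 over 18 regulators and -0.05 over 16 genes of chain synthesis and matrix secretion, beside -0.01 over all measured genes. With 1 FPKM added, no gene of either list reached 2-fold (0 of 18 and 0 of 16), beside 5.99% of all measured genes. In the abundance classes of 5 FPKM or more, which hold most of the 16, between 1.79% and 3.56% did so. In the class of 1 to under 5 FPKM, which holds many of the 18 regulators, 10.5% did so. By plain ratio 2 regulators reached 2-fold, pth1ra (2.13-fold lower) and ihhb (3.18-fold higher). Both averaged 1 to under 5 FPKM, where 11.6% of genes were lower in the mutant library by as much by plain ratio. The share higher by as much was not counted. The level of ihhb was 0.510 FPKM in the wild-type library and 1.62 FPKM in the mutant. The transcription factor gene foxc1b had the highest difference among the regulators, at 6.41 FPKM in the wild-type library and 12.02 FPKM in the mutant. The lowest was pth1ra, a receptor of parathyroid hormone-related peptide, at 2.53 and 1.19 FPKM. The growth factor receptor gene fgfr3 stood at 18.4 and 13.7 FPKM. In chain synthesis and secretion, creb3l2, which drives secretory capacity in chondrocytes, had the lowest difference, at 16.6 FPKM in the wild-type library and 11.1 FPKM in the mutant. The chondroitin synthase gene chsy1 had the highest, at 4.45 and 6.44 FPKM.

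Genes of osteoblasts and bone matrix were evenly divided. Of 20 measured genes other than the members, 10 lay above 0 and 10 below, with a median of 0.00. None of the 20 reached 2-fold (0 of 20), beside 5.99% of all measured genes. In the abundance classes of 5 FPKM or more, which hold most of the 20, between 1.79% and 3.56% did so. The phosphatase gene phospho1, which releases phosphate for mineralization, had the highest difference, at 4.20 FPKM in the wild-type library and 9.13 FPKM in the mutant (2.17-fold higher by plain ratio, 0.96 on the log2 scale with 1 FPKM added). The lowest was scpp5, another secretory calcium-binding phosphoprotein gene, at 33.5 and 21.0 FPKM, 1.60-fold lower in the mutant library. The most abundant were sparc, a collagen-binding glycoprotein, at 852 and 887 FPKM, and postnb, a periostin gene, at 218 and 279 FPKM.

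Among 22 measured genes of mineral, phosphate and vitamin K handling, 2 were higher in the mutant library by 2-fold or more and 0 were lower by as much, with a median of 0.05. Over all measured genes 2.87% were higher by as much. In the abundance class that holds pth1b 10.5% of genes reached 2-fold in either direction, and in that of vkorc1 3.56%. Whether 2 of 22 differs from these shares was not tested. The first, vkorc1, encodes the vitamin K epoxide reductase that keeps the carboxylation of Gla proteins such as the product of mgp supplied. It stood at 0.694 FPKM in the wild-type library and 9.86 FPKM in the mutant, in a region that it shares with mapk7, so the value is uncertain. The second, the parathyroid hormone gene pth1b, was listed at 0 in the wild-type library and at 3.46 FPKM in the mutant. By plain ratio phospho1 (2.17-fold higher) and abcc6a (2.04-fold lower) of this list also reached 2-fold. In the class of abcc6a, 1 to under 5 FPKM, 11.6% of genes were lower in the mutant library by as much by plain ratio. For the class of phospho1 the plain-ratio share was not counted. The vitamin D-degrading enzyme gene cyp24a1 had the lowest difference, at 67.2 and 43.1 FPKM. The most abundant gene, the phosphate transporter slc20a1b, stood at 145 and 137 FPKM. The carboxylase gene ggcx, named after its values were seen, stood at 8.45 and 8.88 FPKM.

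**Figure D4:**
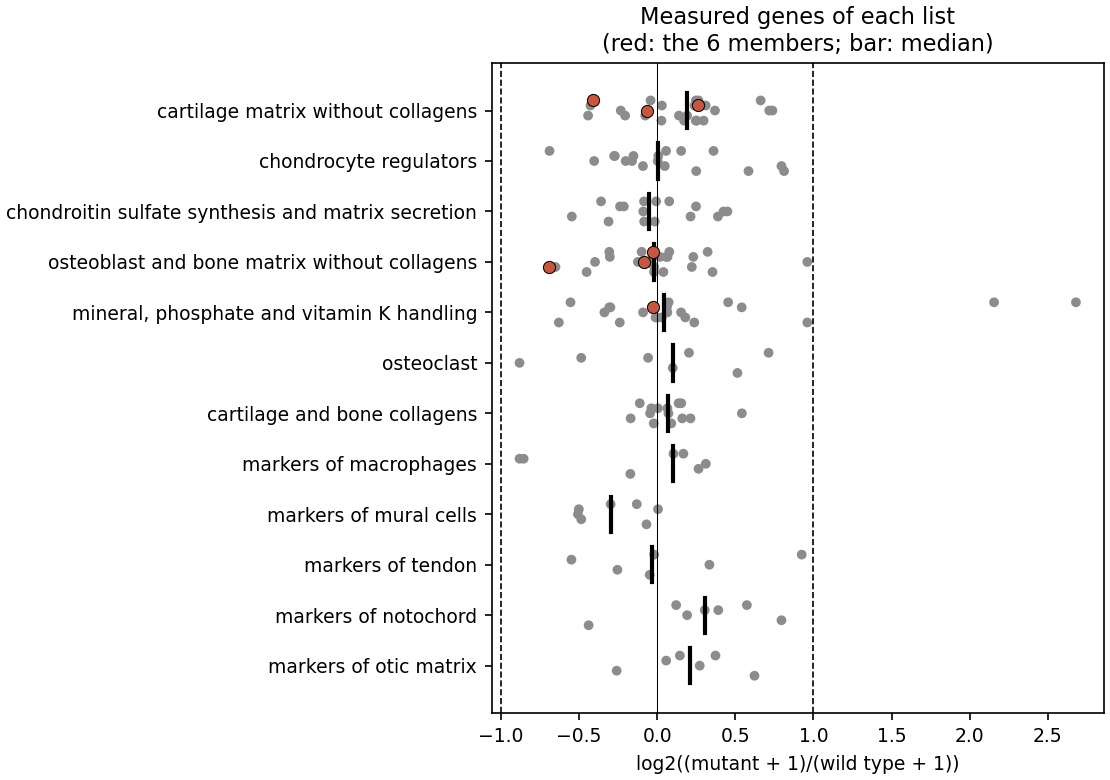
Log2 difference between the libraries, with 1 FPKM added, for the measured genes of each list (grey points), with the 6 matrix genes in red, the median of each list as a black bar and dashed lines at 2-fold. The points past 2-fold are vkorc1 and pth1b, and list medians run from -0.30 for mural cells to 0.30 for notochord.

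Markers of other cells that can express or surround these genes differed in direction from list to list. Of 7 measured osteoclast genes 4 lay above 0 and 3 below, with a median of 0.10. The highest was acp5b, a tartrate-resistant phosphatase gene, at 3.26 FPKM in the wild-type library and 5.99 FPKM in the mutant, and the most abundant was mmp9, at 75.2 and 86.7 FPKM. The lowest were csf1ra, a receptor gene that macrophages share, at 5.13 and 2.33 FPKM, and the calcitonin receptor gene calcr, at 4.48 and 2.91 FPKM. Macrophage markers, relevant to spp1, lay above 0 in 4 of 7 measured genes, with a median of 0.10. All 9 macrophage markers with a row, measured or not, summed to 53.3 FPKM in the wild-type library and 52.8 FPKM in the mutant. Of these sums aif1l alone held 33.1 and 37.3 FPKM. Beside csf1ra the lowest was spi1b, at 4.17 and 1.86 FPKM, and the highest were lcp1, at 2.54 and 3.39 FPKM, and mfap4, at 1.87 and 2.44 FPKM. The other measured markers were mpeg1, at 3.81 and 3.27 FPKM, and ptprc, at 1.46 and 1.64 FPKM. Below an average of 1 FPKM were marco, at 0.773 and 0.197 FPKM, and csf1rb, at 0.448 and 0.359 FPKM. Mural cell markers, relevant to mgp, which vascular smooth muscle expresses in mammals, lay below 0 in 6 of 7 genes, with a median of -0.30. Over all measured genes 9719 of 19112 lay below 0. The mural markers summed to 243 and 209 FPKM, of which acta2 alone held 138 and 112 FPKM. The lowest mural marker was myh11a, at 5.10 and 3.30 FPKM. The only mural marker above 0, tagln, was nearly equal in the 2 libraries, at 50.6 and 50.8 FPKM. Medians were -0.03 over 6 genes of tendon, 0.30 over 7 of notochord and 0.21 over 6 of otic matrix. In the osteoclast list acp5a, in the notochord list flh and in the otic list otol1a, otogl and oc90 were listed at 0 in 1 of the 2 libraries. With 1 FPKM added, no marker list had a gene past 2-fold (0 in each), beside 5.99% of all measured genes. In the class of 1 to under 5 FPKM, which holds many of these markers, 10.5% of genes did so. By plain ratio 4 genes passed, csf1ra (2.20-fold lower), spi1b (2.24-fold lower), the tendon list's egr2a (3.68-fold higher) and the notochord list's ihhb (3.18-fold higher). All 4 averaged 1 to under 5 FPKM. By plain ratio, 11.6% of the genes of that class were lower in the mutant library by 2-fold or more. The share higher by as much was not counted. The part of these cells in the levels of spp1 and mgp was not tested.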

How the data were processed

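RNA from whole larvae was extracted with a column kit and sequenced on Illumina libraries, per the labels' protocols. CASAVA, Bowtie and the Zv9 genome build are named in the submitters' processing notes, without versions. For the tool behind the table, the annotation and multiply mapped reads, nothing is given in the sources used here. The deposited values were read as FPKM from the layout of the table, which matches that of Cuffdiff, so this unit is inferred. The p-values and q-values are those the authors deposited and were not recomputed. The table's library names, ending in WT and MT, gave the genotype of each column. The authors' columns of log2 fold change and test statistic hold text in some cells and were not used.

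Rows sharing a symbol were summed (765 symbols had several), 1 FPKM was added, and differences were computed with Python 3.11.15 and pandas 2.3.3. Folds are plain ratios. The rule was tested on simulated data without noise, at levels of 5 FPKM or more. This checked its arithmetic and not its error on noisy or lower values. Abundance classes were set at mean FPKM of 1, 5, 20 and 100. The members and 12 gene lists (194 entries, of which 20 had no row by symbol) were chosen with earlier results of these data known. The genes named from each list were the 2 highest, the 2 lowest and the 2 most abundant measured ones, and the text prints some of them. Others, such as genes listed at 0 and copies and neighbours of a member, were named after their values were seen. With 2 libraries no gene was named for a like pattern. Other pseudocounts, filters, scalings and matches were tried. The regions of matn4, pth1ra, chsy1, abcc6a, calcr, col10a1, col1a1a, col27a1a, col27a1b and spi1b also hold other rows, so their values may be split.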

Additional observations from a re-analysis of the deposited data

How the results depend on the processing

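No paired analysis was possible because each genotype has 1 library. For acana, matn1, matn3a, spp1 and entpd5a, every alternative that kept the gene left the direction the same and moved the log2 difference by at most 0.1, and a minimum mean of 5 FPKM left out mgp and entpd5a. For mgp, the log2 difference was -0.97 with a pseudocount of 0.1 FPKM, -0.31 with 5 FPKM, -1.01 with no pseudocount and 0.19 with the rows of its region summed, the last 2 added after seeing the data. The plain ratio made 1 of the 6 genes, mgp, pass 2-fold. With a pseudocount of 0.1 FPKM, 2 chondrocyte regulators and 1 osteoblast gene passed 2-fold, and with no pseudocount 2 of each did. Under both of these settings, 1 osteoclast, 2 macrophage, 1 tendon and 1 notochord gene passed. In the mineral list 3 genes passed in place of 2 under each, but not the same 3. With no pseudocount they were vkorc1, phospho1 and abcc6a. There pth1b, listed at 0 in the wild-type library, has no ratio and was left out of the count. In the mineral list, 1 gene passed with a pseudocount of 5 FPKM and 1 with a mean of at least 5 FPKM. Rescaling changed the mutant values by at most 0.03 on the log2 scale. Medians moved by over 0.1 for osteoclasts (0.20 at a mean of at least 5 FPKM) and macrophages (-0.09 with no filter). Without counts, no counting interval can be given, and the lowest genes, mgp and entpd5a, are the least certain.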
